A study of Mus musculus with 6 samples.

Results

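The regions described here are 657 stretches of mouse genome, each 0.451 kb wide, whose centres fell no more than 2.5 kb from where a protein-coding gene begins or ends. They were taken from a deposited list of 6502 regions of chromatin accessibility (genome build mm10), of which 3291 had this width (wide regions) and 3210 were 0.143 kb across (narrow regions). Members were chosen by width and by the distance of the centre to either end of a RefSeq gene span (GRCm38.p6), and by nearest end they belonged to 652 of 21887 protein-coding genes (2.98%). The same rule applied to narrow regions gave 323 regions at 308 genes (1.41%), which serve as the comparison.

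Accessibility was measured by ATAC-seq, in which a transposase cuts and tags exposed DNA, in 6 libraries of basal prostate stem cells. These cells were sorted fresh from digested prostates as CD45-CD31-Sca-1+CD49f+, a gate that leaves out leukocytes and endothelial cells. The 3 naive libraries are labelled WT and control. The 3 inflamed libraries are labelled POET3, a strain that expresses ovalbumin in the prostate, and were taken 7 days after mice received activated splenocytes from OT-1 donors. The extraction text names POET3 mice for both groups, so the genotype of the naive libraries is uncertain, and as labelled genotype and inflammation cannot be told apart. How many mice gave each library is not stated in the sources used here. The list was read as one of regions differing between naive and inflamed cells, since its deposited name holds the abbreviation diff and the processing notes name edgeR. It has chromosome, start and end alone. No member therefore has a value per library, a direction, a replicate error or a known depth, and none is described as gained or lost.

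The start of a gene carries its promoter, where RNA polymerase II and general transcription factors assemble. Active promoters are depleted of nucleosomes over and just upstream of the start site and give strong ATAC-seq signal. Many mammalian promoters lie in CpG islands, stretches rich in G, C and the CG dinucleotide that are usually unmethylated and are bound by SP and KLF factors at GC boxes. Others have a TATA box and few CG dinucleotides, a class common among tissue-specific and inducible genes. In inflamed epithelium, inducible promoters are classically reached by NF-kB, AP-1, STAT and interferon regulatory factors.

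The sequences below are from promoters that lay inside wide regions at genes of inflammation, androgen response, junctions and cell cycle. Each is the 250 bases before an annotated start site in the RefSeq table (build GRCm38.p6), read 5' to 3' on the gene's strand. They are shown because they hold the motifs that are counted further on. Capitals mark matches on either strand, to the NF-kB consensus in the first pair, to AP-1 (TGACTCA or TGAGTCA) in Gja1, to the cyclic AMP response element (TGACGTCA) in Cdkn2b, and to the GC box (GGGCGG) in the last group.
Tnfaip3: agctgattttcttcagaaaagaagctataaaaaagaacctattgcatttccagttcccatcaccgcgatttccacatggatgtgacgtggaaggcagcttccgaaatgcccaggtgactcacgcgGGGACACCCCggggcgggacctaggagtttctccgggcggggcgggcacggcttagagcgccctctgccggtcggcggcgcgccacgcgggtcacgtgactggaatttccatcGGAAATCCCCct
Steap4: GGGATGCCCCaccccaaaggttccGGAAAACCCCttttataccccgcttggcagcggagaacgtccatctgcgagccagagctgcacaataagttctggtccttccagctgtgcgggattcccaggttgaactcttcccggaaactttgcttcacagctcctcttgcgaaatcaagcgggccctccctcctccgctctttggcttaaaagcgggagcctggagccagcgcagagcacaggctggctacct
Gja1: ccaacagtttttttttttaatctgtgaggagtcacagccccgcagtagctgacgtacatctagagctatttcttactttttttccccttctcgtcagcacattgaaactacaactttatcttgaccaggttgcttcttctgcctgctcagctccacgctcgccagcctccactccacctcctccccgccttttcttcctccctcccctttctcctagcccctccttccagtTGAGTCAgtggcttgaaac
Cdkn2b: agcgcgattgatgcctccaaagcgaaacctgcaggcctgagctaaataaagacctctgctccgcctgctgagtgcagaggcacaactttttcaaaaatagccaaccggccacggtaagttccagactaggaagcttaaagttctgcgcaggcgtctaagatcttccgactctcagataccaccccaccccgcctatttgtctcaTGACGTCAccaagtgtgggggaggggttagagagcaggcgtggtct
Ifngr1: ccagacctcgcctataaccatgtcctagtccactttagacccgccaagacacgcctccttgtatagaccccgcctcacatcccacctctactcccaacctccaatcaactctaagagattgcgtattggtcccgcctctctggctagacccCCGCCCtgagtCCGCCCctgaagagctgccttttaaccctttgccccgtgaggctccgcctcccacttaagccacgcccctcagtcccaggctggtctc
Irak4: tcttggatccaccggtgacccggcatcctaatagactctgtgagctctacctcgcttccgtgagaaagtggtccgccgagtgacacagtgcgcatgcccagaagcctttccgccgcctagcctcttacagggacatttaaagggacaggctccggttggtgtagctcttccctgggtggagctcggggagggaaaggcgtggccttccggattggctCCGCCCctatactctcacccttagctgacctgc
Ptger4: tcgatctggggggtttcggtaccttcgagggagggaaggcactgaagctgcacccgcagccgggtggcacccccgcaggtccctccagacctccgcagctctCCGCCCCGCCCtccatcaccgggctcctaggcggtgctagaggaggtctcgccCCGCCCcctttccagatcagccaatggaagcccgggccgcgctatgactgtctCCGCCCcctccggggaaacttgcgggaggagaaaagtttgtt

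Tnfaip3 encodes A20, a ubiquitin-editing inhibitor of NF-kB signalling. Its stretch (chr10:19015411-19015660, minus strand) lay wholly in the region, and NF-kB matches began 125 and 12 bases before the start. Steap4 encodes a metalloreductase of the prostate, and its stretch (chr5:7960222-7960471, plus strand) also lay wholly in the region, with NF-kB matches 250 and 226 bases before the start. The NF-kB consensus was found in 5.68% of the 458 promoter windows overlapped by wide regions and in 4.81% of all 21263 windows. Gja1 encodes connexin 43, the main gap junction protein of basal epithelium (chr10:56377050-56377299, plus strand), and its AP-1 match began 19 bases before the start. Cdkn2b encodes the G1 inhibitor p15 (chr4:89311033-89311282, minus strand). Its cyclic AMP response element began 46 bases before the start, within the 153 bases next to the start that the region covered. The stretches of Ifngr1 (chr10:19591699-19591948, plus strand), Irak4 (chr15:94543410-94543659, plus strand) and Ptger4 (chr15:5244188-5244437, minus strand) lay wholly in their regions. Ptger4 held 4 GC boxes, the first 148 and the last 42 bases before the start. A match shows that these letters are present and says nothing of binding.

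The wide regions lay over gene starts. Strand was given for the genes of 508 members. The nearest end was the gene's start for 452 of these (89.0%, exact 95% interval 85.9 to 91.6) and the other end for 56. Among narrow regions the start was nearest for 158 of 252 (62.7%, 56.4 to 68.7), and the difference of 26.3 percentage points passed (Fisher's exact test, two-sided, adjusted p = 1.57e-16 over 3 properties). Here the start is the outer end of the gene span. Some transcripts begin further inside, and 332 of the 452 covered at least 1 start site that the promoter table gives for the same gene. The tests treat regions as independent, which neighbours are not, so these p-values are too small.

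Coverage around the start was a single sharp rise. The start itself was covered by 279 of the 452 regions (61.7%), and the best covered bases, 76 to 78 downstream, by 301 (66.6%). At 500 bases upstream coverage had dropped to 3.54%, and at 500 bases downstream to 14.8%. Centres within 1 kb of the start made up 90.3% (exact 95% interval 87.2 to 92.8). Around the other end there was no such rise. At most 9 of 56 regions (16.1%) covered any base there, and the median distance from that end was 1051 bases, against 153.5 bases from the start for the 452.

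**Figure D1:**
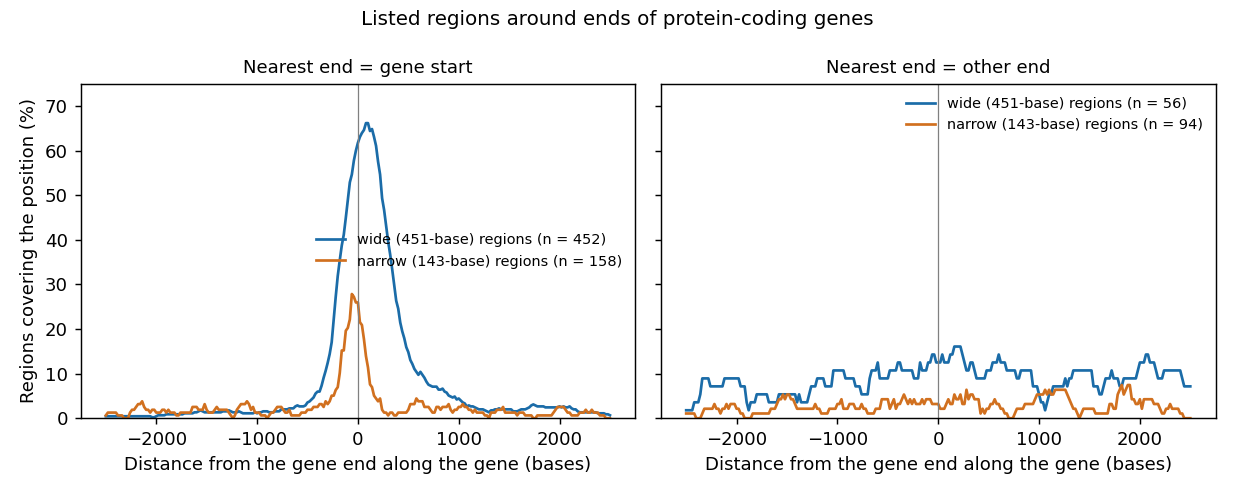
Share of regions covering each position around the nearest gene end, plotted along the gene (negative distances lie before the end), for regions whose nearest end is the start (left) or the other end (right). Coverage by wide regions peaks at 66.6% just downstream of the start, that by narrow regions at 29.1%, 45 bases upstream, and neither width has a comparable peak at the other end. Peak heights depend on width, since a wider region covers any base more easily. Trimmed to their central 0.143 kb, 28.3% of wide regions near starts covered the start, against 25.9% of narrow regions.

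Measured from the outer end of the gene span, the wide regions leaned into the gene. Of the 452 near starts, 312 were centred downstream and 138 upstream, with a median of 96.5 bases downstream (quartiles -25.25 to 277.5). The narrow regions leaned the other way, with 69 downstream, 88 upstream and a median of -34.5 bases. A region over a start site further inside the span counts as downstream and as inside the gene. Of 173 wide regions near a start that did not cover it, 66 covered another listed start of the same gene. For narrow regions this was 6 of 117. How much of the lean comes from such inner starts was not tested. Over all members, 436 of 657 centres lay inside the gene (66.4%, exact 95% interval 62.6 to 70.0), against 140 of 323 (43.3%, 37.9 to 48.9, Fisher's exact test, two-sided, adjusted p = 9.86e-12). Among regions nearest to a start alone the shares were 69.5% and 44.3% (adjusted p = 3.57e-08).

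An end was covered by 373 of 657 members (56.8%) and by 49 of 323 narrow regions (15.2%, adjusted p = 2.88e-37 by Fisher's exact test, two-sided). A wider region covers an end more easily, and the groups were set by width, so this p-value cannot separate placement from width. Trimmed to their central 0.143 kb, 175 members covered an end (26.6%, adjusted p = 4.89e-05). With that trimming and among regions nearest to a start alone, the shares were 28.3% and 25.9%, and the difference did not pass (adjusted p = 0.607).

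The members closest to a gene start, within 4 bases of it, were at Irak4, Ttc39b, Rraga, Rtl8c, Ndufa12, Ttc21b, Ckap2l, Morc4, Epha3 and Macc1. Those of Irak4 and Ttc39b were centred exactly on the start as set by the gene span. The Irak4 sequence shown above precedes another listed start of that gene, at 94543660. Irak4 encodes a kinase of interleukin-1 receptor and Toll-like receptor signalling, Rraga a GTPase that relays amino acids to mTORC1, Ndufa12 a subunit of respiratory complex I and Epha3 an ephrin receptor. Macc1 encodes a regulator of the HGF receptor gene. The region at Ckap2l (chromosome 2, 129297005 to 129297455) is also the wide region nearest to Il1a, 2.379 kb from an end of that gene. At the limit of 2.5 kb, the last members inside were at Slc4a5, Itprid2 and Cpeb1 (2496, 2494 and 2475 bases), and the first regions outside were near Clcn7, Fam149a and Tmem170b (2505, 2513 and 2591 bases).

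Promoters in members were of the CpG-island kind more often than promoters at large. RefSeq windows of 300 bases, from 250 before to 50 after a start, were available for 17492 of 21887 protein-coding genes. Members overlapped 458 windows of 416 genes. Their median G + C was 63.2% (quartiles 57.3 to 69.7), against 56.3% (48.3 to 64.7) in all 21263 windows. A ratio of observed to expected CG dinucleotides of 0.6 or more, a usual mark of CpG islands, was reached by 356 (77.7%, exact 95% interval 73.6 to 81.5) and by 47.7% of all windows. The 102 windows in narrow regions stood at 79.4% (70.3 to 86.8) and a median G + C of 62.3%. Put the other way, members overlapped 3.51% of all windows with a high ratio and 0.917% of those with a low one.

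**Figure D2:**
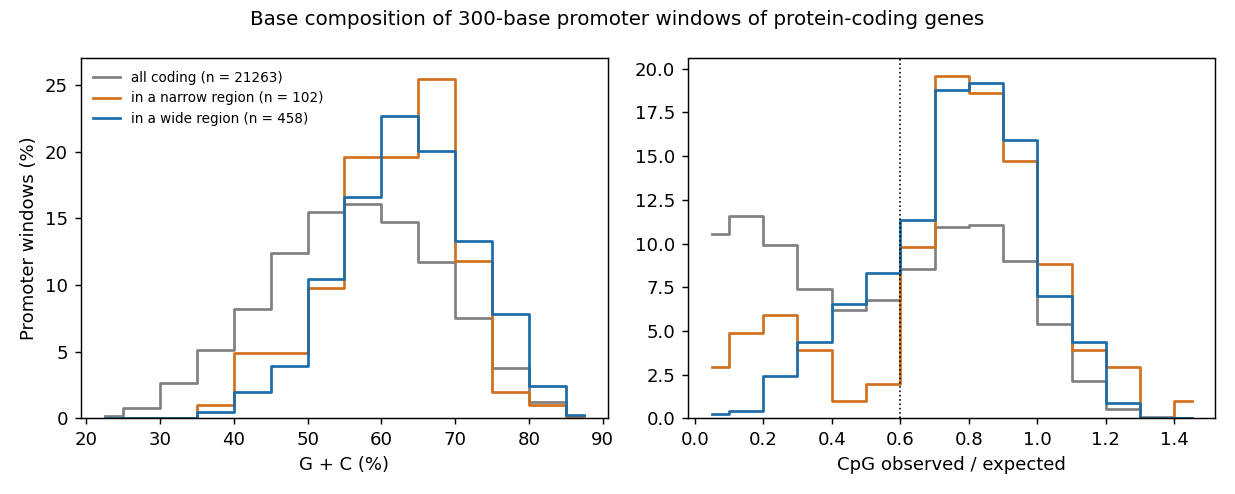
Distribution of G + C content (left, bins of 5 percentage points) and of the ratio of observed to expected CG dinucleotides (right, bins of 0.1, dotted line at 0.6) in promoter windows, as a percentage of each group's windows. Windows in wide and narrow regions both lie to the right of all windows, with medians of 63.2%, 62.3% and 56.3% G + C.

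Motif shares were read beside base composition, since GC-rich windows hold some motifs more often by their letters alone. The GC box was in 73.6% of windows in members (exact 95% interval 69.3 to 77.6), in 70.6% of those in narrow regions and in 46.2% of all. Within windows of high CG ratio the shares were 80.6% for members and 74.1% for all, and within those of low ratio 49.0% and 20.7%. Position and strand of a TATAAA match were not used, so its counts are not counts of promoters of the TATA class. The letters of the TATA box were in 20 of 458 windows (4.37%, 2.69 to 6.66), against 12.6% of all and 11.8% of those in narrow regions. In windows of high ratio these shares were 3.37% for members and 5.58% for all, and in those of low ratio 7.84% and 19.0%. The NFY box (CCAAT) was as frequent in members (37.3%) as in all windows (38.2%), within the interval of 32.9 to 41.9.

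The AP-1 motif had a lower share in members than in narrow regions. It was in 14 of 458 windows in members (3.06%, exact 95% interval 1.68 to 5.08) and in 10 of 102 in narrow regions (9.80%, 4.8 to 17.3), beside 4.66% of all. In windows of high ratio it was in 2.25% for members and 2.47% for all, and in those of low ratio in 5.88% and 6.65%. No test was run on this difference, and the intervals cover counting error only. The interferon-stimulated response element was in 1.31% of windows in members and 3.35% of all. The SOX motif (ACAAAG) was in 9.39% and 16.8%, and the motif of GATA factors in 5.24% and 9.65%. Within windows of high CG ratio these gaps were smaller, 7.30% and 10.95% for SOX and 3.37% and 4.31% for GATA factors. In windows of low ratio they were 16.7% and 22.1%, and 11.8% and 14.5%. The ETS motif (CCGGAAGT) stood at 7.42% against 5.15%, but at 8.71% against 9.05% in windows of high ratio and 2.94% against 1.59% in those of low ratio. The full steroid receptor site was in 1 window in members and in 0.212% of all, and the short form of that site (AGAACA) in 10.9% against 16.2%, which in windows of high ratio was 8.71% against 9.33%.

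**Figure D3:**
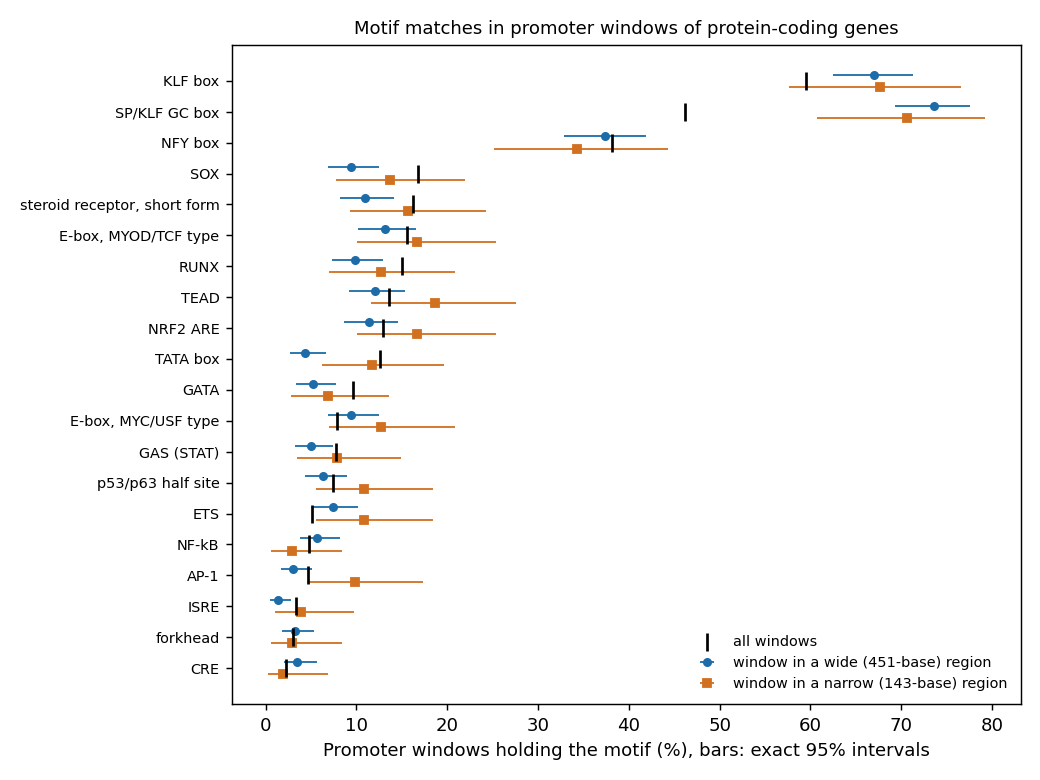
Percentage of promoter windows that hold each motif with a share of at least 2% among all windows, for windows in wide regions (circles, n = 458) and in narrow regions (squares, n = 102), with exact 95% intervals, and for all windows (ticks). The GC box stands at 73.6% in members against 46.2% in all windows, and AP-1 at 3.06% in members against 9.80% in narrow regions.

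Some members lay at ends of more than 1 gene. Ends of 2 or more protein-coding genes lay within 2.5 kb of 80 members (12.2%), against 59 of the narrow regions (18.3%). For 43 of the 80 the ends were both starts, 42 of these pairs ran on opposite strands, and 23 regions covered both starts. Among the closest pairs were Nsa2 and Gfm2 (14 and 21 bases from the centre), Pms1 and Ormdl1 (7 and 57 bases), Acad8 and Thyn1 (24 and 47 bases) and Fastkd3 and Mtrr (47 and 49 bases). Nsa2 acts in ribosome assembly, Gfm2 in mitochondrial ribosome recycling, Pms1 in mismatch repair and Mtrr in methionine synthase reactivation. Irak4 and Pus7l, a pseudouridine synthase gene, also shared a region (chromosome 15, 94543388 to 94543838), 0 and 79 bases from its centre, as did Wdpcp and Mdh1 (21 and 56 bases), the cytosolic malate dehydrogenase gene. Zfp445 and Zkscan7 lay 33 and 66 bases from the centre of theirs, with the strand of Zkscan7 not in the table. Gm45935 and Setdb2, a histone methyltransferase gene, share 1 annotated start, and Dact1 and 2700049A03Rik meet as an end and a start. A start of a non-coding RNA gene was covered by 28 members (4.26%) and by 1 of the narrow regions (0.310%). A wider region covers a start more easily, and these counts were not made at equal width.

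Shares varied between chromosomes. Over all chromosomes 2.98% of protein-coding genes had a member, and 1.41% had a narrow region near an end. On chromosome 13 this was 66 of 829 genes (7.96%). On chromosomes 1, 3, 10, 12 and X it lay between 4.8% and 4.88%. On chromosome 11 it was 8 of 1609 (0.497%), and on chromosome 17 5 of 1059 (0.472%). The narrow regions stood at 51 genes on chromosome 11 (3.17%), 1 on chromosome 13 (0.121%) and none of the 966 genes on X. On chromosome 17 the narrow share (1.32%) was also above the wide share, as on chromosome 19 (2.70% narrow, 1.13% wide). On chromosome 12 the narrow share (1.77%) and the wide share were both above their values over all chromosomes. None of the 256 genes on Y had a region of either width. Chromosome 7, with the most protein-coding genes (2030), had 1.23% and 1.28%. What sets these shares was not tested.

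**Figure D4:**
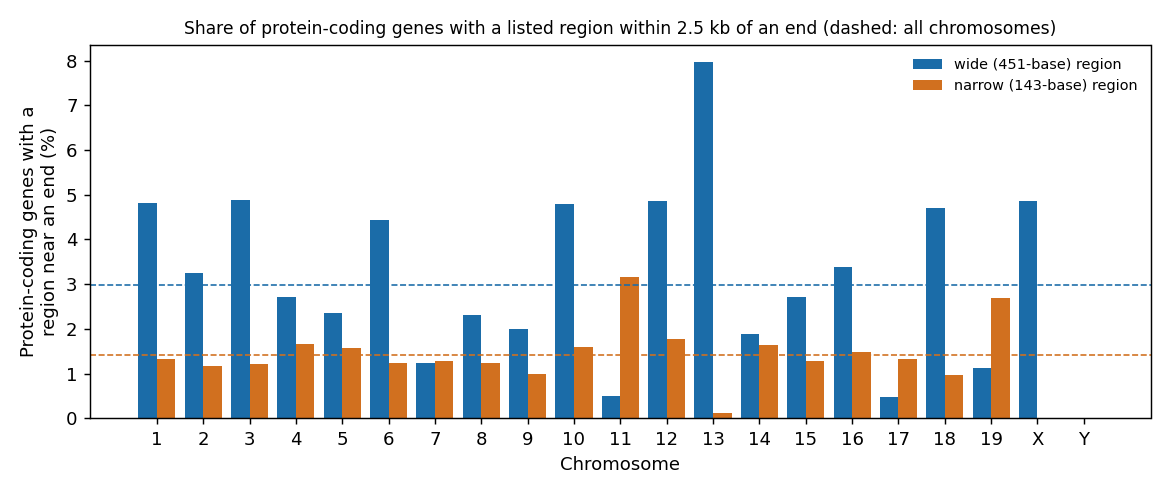
Percentage of each chromosome's protein-coding genes that were nearest to a wide or a narrow region centred within 2.5 kb of an end. Dashed lines mark the values over all chromosomes (2.98% and 1.41%). Chromosome 13 stands highest for wide regions at 7.96% and chromosome 11 highest for narrow regions at 3.17%.

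Few members had close neighbours. Another wide region was centred within 10 kb of 39 members (5.94%) and a narrow region of 9 (1.37%). For narrow regions near ends the figures were 4 (1.24%) with a wide and 40 (12.4%) with a narrow neighbour. A pair of members was found at 5 genes. Ifit2, an interferon-induced antiviral gene, had regions 210 and 1531 bases downstream of its start. Mcidas, a regulator of multiciliated cells, Ints12, an Integrator subunit, and Wasl, which encodes the actin regulator N-WASP, each had a region near the start (439, 43 and 92 bases) and another near the other end (1591, 2118 and 1296 bases). Cidea, a lipid droplet gene, had them 0.111 and 1.687 kb from its ends. Both widths occurred near ends of 4 genes. At Pgap1 a wide region lay on the start and a narrow region 384 bases from the other end, at BC052040 and Ggh the widths were likewise at opposite ends, and at Cep20 both lay near the start (844 and 1665 bases). Genes with a member were long. Counted once per region, the median span of the nearest gene was 37.6 kb for members and 18.9 kb for narrow regions. Over all protein-coding genes, each counted once, it was 17.2 kb.

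Among genes of inflammatory signalling, Irak4 and Tnfaip3 had members at their starts, and Il15, Cxcl5 and Socs2 had members near an end. The gene lists used here were drawn up with earlier results of these data known, and the counts carry no test. Each region counted for its nearest gene alone, so a gene that shared a region with a nearer gene was not counted for it. Shares near 2.98% do not set a list apart, and most lists are so short that 1 gene moves the share by over 2 percentage points. Among 24 interleukin-1 ligands, receptors and signalling proteins, Irak4 had a member (4.17%, beside 2.98% of all protein-coding genes). The receptor antagonist gene Il1rn had none. Its nearest wide region was 1325 kb away, and a narrow region lay 93 bases from an end. Il1b and Il1r1 had their nearest wide regions 40.8 and 156 kb from an end. Of 31 NF-kB genes Tnfaip3 had one (3.23%), centred 25 bases upstream of the start (chromosome 10, 19015210 to 19015660), while 3 had a narrow region (9.68%). Among 34 cytokine and chemokine genes there were 2 (5.88%), Il15 (0.477 kb from an end) and Cxcl5, a neutrophil chemokine (0.919 kb). Of 37 cytokine receptor and SOCS genes there was 1 (2.70%), Socs2, a feedback inhibitor of cytokine receptors (0.374 kb).

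Of 38 interferon response genes, 2 had a member (5.26%, beside 2.98% of all protein-coding genes). Ifngr1, a chain of the interferon-gamma receptor, had it 85 bases upstream of the start (chromosome 10, 19591639 to 19592089), and Ifit2 as given above. For narrow regions the count was 4 (10.5%, beside 1.41%). Lists of eicosanoid and lipid mediators and of epithelial junctions had the highest shares among the 26 lists given by symbol, each 14.3%. In the first, 5 of 35 genes had a member and none had a narrow region. Lta4h, which makes leukotriene B4, was centred 5 bases upstream of its start, Pla2g4a, which releases arachidonic acid, 179 bases downstream, and Ptger4, the prostaglandin E2 receptor EP4, 215 bases upstream. Sqle, an enzyme of cholesterol synthesis, had a member 171 bases from an end, and all 5 regions covered the end.

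Among the 42 junction genes, 6 had a member by nearest gene (7 when every gene within the limit counted) and none a narrow region. The list does not hold every junction gene, so this does not show that such genes lack narrow regions. The tight junction gene Cldn3, which is not in it, had a narrow region centred 52 bases upstream of its start. Gja1 was centred 34 bases upstream of its start. The desmosomal cadherin gene Dsg2 and Perp, a desmosomal target of p63, had regions across an end (46 and 85 bases). The cadherin gene Fat4 had one 1031 bases downstream of the start. The tight junction genes Marveld2 and Cldn12 had them 535 and 1466 bases beyond the other end. The 28 basal markers had 1 (3.57%), Snai2, an epithelial-mesenchymal transcription factor gene (24 bases), and the 26 luminal markers none. These are near the 2.98% of all protein-coding genes for lists of this size. For narrow regions the counts were 3 (10.7%) and 2 (7.69%), beside 1.41% of all. Neither Krt5, Krt8 nor the basal lineage factor Trp63 was among the members, and for Trp63 the nearest wide region was 7.12 kb from an end. Of 39 integrin, laminin and collagen genes 1 had a member (2.56%, near the overall share), Itga1, a collagen-binding integrin, 191 bases downstream of the start.

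Of 39 androgen response genes 3 had a member (7.69%, beside 2.98% of all protein-coding genes). Among these, Steap4 had it 30 bases upstream of the start (chromosome 5, 7960217 to 7960667), and Mme, which encodes neprilysin, 628 bases downstream. The region at Mme covered another start site of that gene, listed further inside the span. With a single narrow region in this list, the widths differ by 2 genes.

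Several growth factor and fate genes had a member, in shares on both sides of the 2.98% of all protein-coding genes. Of 37 immediate early and MAPK feedback genes 3 had one (8.11%). Myc lay under one that crossed an end (61 bases, chromosome 15, 61985055 to 61985505), Spred1, an inhibitor of RAS signalling, had one 544 bases upstream of its start, and Dusp10, a phosphatase of p38 and JNK, one 1310 bases beyond the other end. Another member, given to 1700056E22Rik by its nearest end, was centred 283 bases from the start of Dusp10. Of 42 TGF-beta and BMP genes there were 3 (7.14%), Smad9 (102 bases downstream), the BMP receptor gene Acvr1 (459 bases upstream) and Bmp2 (0.432 kb). Of 29 EGF receptor family genes there were 2 (6.90%), the ligand gene Epgn (146 bases upstream) and Erbb4 (1583 bases downstream). Of 55 Notch, Wnt and Hippo genes there was 1 (1.82%), the Notch ligand gene Jag1 (624 bases upstream), of 45 cell cycle genes 1 (2.22%), Cdkn2b (72 bases downstream), and of 25 KLF and SP genes 1 (4.0%), Sp4 (612 bases upstream). The death receptor pathway genes Casp8 (266 bases downstream) and Fas (0.451 kb beyond the other end) were the 2 of 35 p53 and apoptosis genes (5.71%). The 2 of 67 chromatin regulators (2.99%) were the DNA demethylase gene Tet2 (461 bases downstream) and the histone demethylase gene Kdm6a (1543 bases downstream). The region at Kdm6a covered another start site of that gene, listed further inside the span. No member was given to any of 25 AP-1 and ATF, 37 stress response and 43 nuclear receptor and circadian genes. When every gene within the limit counted, the last list had 1. The member given to Ndufa12 was also centred 1817 bases from an end of the nuclear receptor gene Nr2c1.

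**Figure D5:**
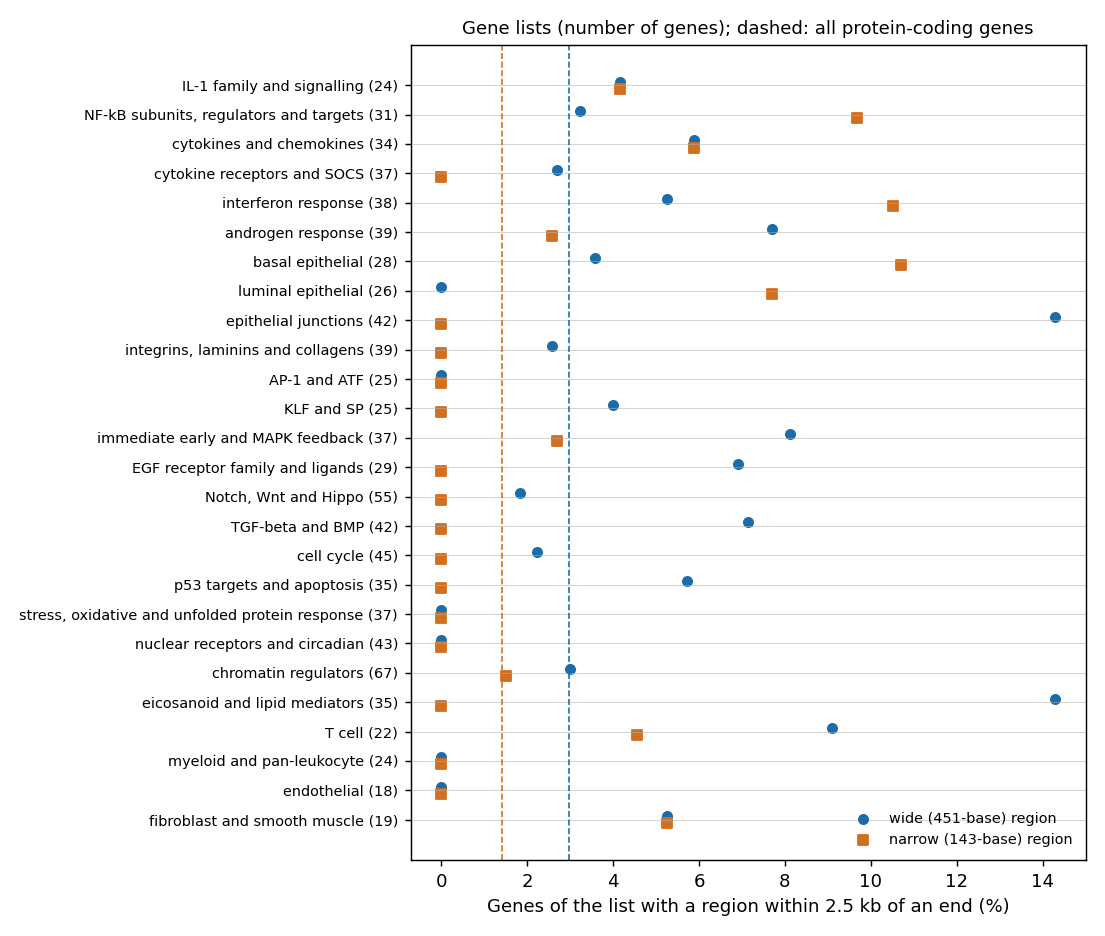
Percentage of each list's genes that were nearest to a wide (circles) or a narrow region (squares) centred within 2.5 kb of an end. List sizes are in brackets, and dashed lines mark the values over all protein-coding genes (2.98% and 1.41%). The junction and the eicosanoid and lipid lists stand highest for wide regions at 14.3%, and 5 lists have none of either width.

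Lists of markers of other cell types held none, 1 or 2 genes with a member, beside 2.98% of all protein-coding genes. Of 24 myeloid and pan-leukocyte and 18 endothelial genes none had a member. Of 22 T cell genes 2 did (9.09%), Cd247, the zeta chain of the T cell receptor (752 bases downstream of the start), and Cd6 (2.41 kb from an end), and of 19 fibroblast and smooth muscle genes 1 (5.26%), Vim (395 bases upstream). The list holds no signal, so purity of the sort could not be measured.

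In gene families defined by symbol, shares went from none to 10.0%. Of 108 GTPase activating and exchange factors 9 had a member (8.33%), among them Rasa1, a RAS GTPase activator (109 bases downstream), Dock1 (133 bases downstream), Arhgef26 (214 bases downstream), Tbc1d8b (35 bases upstream) and Arhgap20 (137 bases upstream). Of 137 coiled-coil Ccdc genes 9 had one (6.57%), and of 238 Tmem genes 10 (4.20%). Solute carriers had 15 of 389 (3.86%), with Slc35b4 (92 bases downstream), the phosphate transporter gene Slc20a1 (169 bases upstream) and Slc25a4, an ADP/ATP carrier (181 bases downstream) closest to their starts. Ubiquitin ligase subunits had 11 of 295 (3.73%), with Klhl25, Trim32 and Trim23 centred 24, 51 and 80 bases upstream. Tetraspanins had 2 of 20 (10.0%), Tspan13 (12 bases upstream) and Tspan5, and genes named Cd with a number 3 of 88 (3.41%), Cd247, Cd6 and Cd5l. Mitochondrial ribosomal and respiratory genes had 4 of 179 by nearest gene (2.23%), Ndufa12, Uqcrfs1, Ndufa5 and Ndufs6, all across their starts. When every gene within the limit counted there were 6. The members given to Ndufs6 and Fam126b also covered the starts of Mrpl36 and Ndufb3 (68 and 157 bases from the centre). Zfp zinc fingers had 7 of 397 (1.76%) and small GTPases 1 of 127 (0.787%), Arl15. Ribosomal proteins had 1 of 84 (Rps6), protein phosphatase subunits 2 of 77, MAP kinases 1 of 49 (Map3k9) and phosphodiesterases and adenylyl cyclases 1 of 36 (Pde3b), all within 2 genes of the overall share. The SOX family had 1 of 19, Sox6. No member was given to any of 1110 olfactory receptor, 103 histone, 70 RNA-binding, 69 protocadherin, 44 forkhead and 39 HOX genes. Over all 47 lists, 116 of 4526 genes had a member (2.56%), beside 2.98% of all protein-coding genes. Without the olfactory receptors it was 116 of 3416 (3.40%), so the lists lay below or above the overall share by that 1 family.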

How the data were processed

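Chromatin accessibility was assayed in 6 libraries. Per the submitters' processing notes, BWA 0.7.17-r1188, SAMtools, HOMER 4.8 and edgeR were used on mm10, and their order, thresholds and filters are not given in the sources used here. The authors deposited 1 merged list of coordinates with 3 columns, most regions being 451 or 143 bases wide, with no value per library, so no comparison of naive with inflamed libraries could be fitted. Starts, counted from 0, were converted to count from 1.

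Each region was given to the protein-coding gene whose end was nearest to its centre (RefSeq, GRCm38.p6), with strand from the RefSeq promoter table. The share of regions with each of 3 properties was compared between widths by Fisher's exact test (two-sided) with Benjamini-Hochberg adjustment. Shares carry exact 95% (Clopper-Pearson) intervals, which cover counting error only. A motif match counted at any position in the promoter window, that of the TATA box included. Promoter windows overlapping a member by at least 1 base were searched on both strands for 29 motifs, namely AP-1, CRE (TGACGTCA), NF-kB, ISRE, the STAT site (TTCNNNGAA), the steroid receptor site in full and short form (AGAACA, which lies within it), p53/p63, TEAD (GGAATG), RUNX (TGTGGT), forkhead (TGTTTAC), GRHL (AACCGGTT), ETS (CCGGAAGT), the GC box (GGGCGG), the KLF box (CACCC), NRF1, NFY (CCAAT), YY1, E-boxes of type CACGTG and of type CAGCTG, HNF1, the SOX site (ACAAAG), sites of the GATA family (AGATAA), SRF, the core promoter box (TATAAA), CTCF, C/EBP (TTGCGCAA), EGR (GCGTGGGCG) and NRF2 (TGACNNNGC, which can overlap AP-1).

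Members, 47 gene lists and motifs were chosen with earlier results of these data known. Of the symbols in the lists 5 had no match. Genes were named where they had a pair of members or both widths, were among up to 5 list members closest to a start, were among the 10 regions closest to a start, lay next to the limit or shared a region with another gene (up to 10 pairs), and for 11 genes fixed in any case. Some of the genes this rule takes are counted without being named, and Cldn12 was added after its values were seen. Results for some genes are not reported here. Alternatives were other distance limits, edges, gene sets, 1 region per gene, regions of 1 gene, fewer chromosomes and a larger promoter overlap. Computation used Python 3.11.15, pandas 2.3.3 and SciPy 1.17.1, and the assignment code was tested on simulated positions.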

Additional observations from a re-analysis of the deposited data

How the results depend on the processing

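No paired analysis was possible because values for single libraries were not part of the data, and for the same reason no library could be left out. The number of members, 657, was 558 within 1 kb, 796 within 5 kb, 664 by nearest edge, 919 with all genes of the table and 637 without predicted genes. The 3 differences between widths kept their direction and passed within 1 kb and 5 kb, with 1 region per gene, without regions near 2 or more genes and without chromosomes 10 and 13. Over these they ran from 20.4 to 29.3 percentage points for the start, 18.2 to 27.2 for centres inside the gene and 37.4 to 41.3 for covering the end. None of these settings made the widths equal, so they cannot check whether the last difference goes beyond width. Chosen after seeing the data were the trimming, the restriction to starts and counting every gene within the limit. With trimming the last difference was 11.5 points, and with trimming at starts alone 2.37 points, which did not pass (Fisher's exact test, adjusted p = 0.607). The 116 list genes with a member were 99 within 1 kb, 127 when every gene within the limit counted and 71 near starts alone, where genes without strand drop out. In windows with at least 150 bases in a member, the share with a high CG ratio was 82.0% and that with CCAAT 42.4%, both outside the intervals given above, and the cause was not tested. The shares for AP-1, the GC box and the TATA box stayed within theirs. The unknown depth and threshold of the list limit every count.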
